A study of Homo sapiens with 8 samples.

Results

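The comparison set S04 and S36, the S-named NKX2-1 knockout clones of RPMI-8402, against the 4 wild-type clones WT10, WT13, WT28 and WT30. These are 6 of the 8 clones in the study. The clones were chosen by their names: C12 and C15, the C-named knockout clones, were kept out of the fit and looked at afterwards for direction alone. RPMI-8402 is an established human T-ALL line, that is, of T-cell acute lymphoblastic leukaemia, in which a chromosome rearrangement is known to switch on LMO1. S04 and S36 carry the genotype label NKX2-1, the others WT, and all 6 grew untreated in RPMI-1640 with fetal bovine serum. Each library is 1 clone, so what sets a clone apart for reasons other than the edit cannot be told apart from the knockout. The labels do not say what the letters C and S stand for, what edit was made, or whether clones were cultured together, and p-values rest only on how these clones vary, which may be technical in part.

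NKX2-1 is a homeobox transcription factor that directs lung, thyroid and forebrain development. Normal T cells do not use it, but a subset of T-ALL expresses it. RUNX1, with which the study's title pairs it, binds DNA together with CBFB and controls blood stem cell and T-cell genes. The title also names protection from DNA damage. Genes of DNA repair, checkpoints, replication and cell death are therefore described beside those of the T-cell programme.

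S04 had a library total of 15340134 counts and S36 of 12344549, and wild-type totals ran from 18453947 to 22916424. Levels are given as CPM, read counts relative to a library total scaled by TMM (trimmed mean of M values), always in the order S04, S36 and then WT10, WT13, WT28, WT30. A count of 0 allows up to 3 counts, or 0.182 CPM for S04 and 0.230 for S36, with wild-type limits of 0.135 to 0.162. Mitochondrial genes took 18.5% and 16.8% of counts in the S clones against 12.9% to 15.1% in wild-type clones. The mitochondrial ribosomal RNA MT-RNR1 alone took 4.51% and 5.52% against 1.25% to 2.02%. Small nuclear and nucleolar RNAs took 0.234% and 0.294% against 0.0554% to 0.0736%, and ribosomal protein genes 9.88% and 10.2% against 14.1% to 15%. These shares are given here because they set the S libraries apart from all wild-type libraries. Genes that every cell uses can be listed near 0 in this table. ALDOA had 0 counts in all 6 clones, and values of FTH1, MCM2, MDC1, MAML1 and FADD below are what the table lists.

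All 12 T-cell leukaemia line markers were tested, and all but CD1A, which had no count in S36, had counts in all 6 clones. Their log2 fold changes were negative for 11 and positive for 1, with a median of -0.47, and CD5 alone was called. The median was -0.39 in S04 and -0.41 in S36. Wild-type clones, each set against the mean of the others, lay between -0.28 and 0.15. CD3E stood at 139 and 224 CPM against 237, 227, 273 and 262, and DNTT, the terminal transferase of lymphoid precursors, at 367 and 498 against 614, 643, 563 and 679. Many defining markers of other cell types were at 0. Of 15 myeloid markers 7, LYZ, ELANE and CEBPA among them, had no count in any of the 6 clones, and the 15 summed to 3.83 and 1.15 CPM against 0.676 to 2.31. HBB and GATA1 were among 8 of 15 erythroid and megakaryocyte markers at 0, MS4A1 was the 1 of 13 B-cell markers at 0, and EPCAM, KRT19 and LUM were among 6 of 16 fibroblast and epithelial markers at 0. The summed B-cell markers stood at 34.9 and 29.3 CPM against 41.6 to 51.1, erythroid and megakaryocyte markers at 49.8 and 69.3 against 58.4 to 62.7, natural killer markers at 18.2 and 21.6 against 18.9 to 34.5, and fibroblast and epithelial markers, of which VIM made up most, at 1008 and 859.8 against 698 to 855. Their part in the results was not tested. In bulk RNA, fewer cells of a type and less RNA per cell cannot be told apart.

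NKX2-1 mRNA was not uniformly low in the S clones. Its level was 84.2 and 33.6 CPM against 57.2, 63.99, 54.6 and 55.1. S04 was above and S36 below every wild-type clone. The change was 0.031 on the log2 scale (SE 0.30, edgeR quasi-likelihood adjusted p = 0.959, exact permutation p = 0.733 over the 15 ways to pick 2 of 6 clones). With S04 as the only S clone it was 0.52 (edgeR adjusted p = 0.0106), and with S36 alone it was -0.80 (edgeR adjusted p = 0.00230), the spread then being taken from the wild-type clones. NKX2-1 lies on the minus strand of chromosome 14 from 36516392 to 36521149 (GRCh38), where its exons overlap those of AL132857.1, also on that strand, and of NKX2-1-AS1, on the opposite one. Since a frameshift can leave the mRNA in place, counts per gene are no check of the genotype label.

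RUNX1 was higher in both S clones. It stood at 300.3 and 267 CPM against 198, 211, 195 and 191, with no overlap. The change was 0.51 on the log2 scale (SE 0.11, edgeR adjusted p = 0.0205, exact permutation p = 0.0667, the smallest that 15 assignments allow). Without any 1 of the wild-type clones the size stayed between 0.50 and 0.54, but the call was lost (edgeR adjusted p = 0.0531 to 0.0805). In C12 and C15 RUNX1 stood at 185 and 181 CPM, below all 4 wild-type clones. RUNX1 spans 34787801 to 36004667 of chromosome 21.

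Partners of RUNX1 moved in both directions. Across the transcriptome 15219 genes were tested, of which 7.17% were called higher and 7.36% lower (adjusted p under 0.05). These shares are the background for the counts of every list. Of the 18 RUNX factors and partners, all tested, 4 rose (RUNX1, CBFB, TLE1 and ETS1), 2 fell (CBFA2T3 and EP300) and 12 did not pass. Their median log2 fold change was 0.038 against 0.025 over all tested genes. CBFB, the non-DNA-binding subunit, stood at 141 and 134 CPM against 101, 89.5, 98.96 and 103 (log2 fold change 0.49, SE 0.11, edgeR adjusted p = 0.0254). TLE1, a Groucho corepressor, stood at 32.99 and 18.8 against 11.3, 11.5, 12.3 and 9.65 (log2 fold change 1.21, SE 0.23, edgeR adjusted p = 0.0136). Both genes were above every wild-type clone in both S clones. CBFA2T3, or ETO2, a corepressor of the TAL1 and RUNX1 complexes, was far lower. It stood at 2.49 and 0.307 CPM against 39.3, 60.3, 17.1 and 44.2 (log2 fold change -4.77, SE 0.74, edgeR adjusted p = 0.00713). WT28 had the least CBFA2T3 of the wild-type clones and still lay above both S clones. CBFB lost its call without WT10, WT13, WT28 or WT30 (edgeR adjusted p up to 0.079), and TLE1 without WT30 (0.0546). EP300 and ETS1 were not called without any 1 of the wild-type clones. TLE1 lies on chromosome 9, whose genes lay high as a whole in both S clones.

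**Figure D1:**
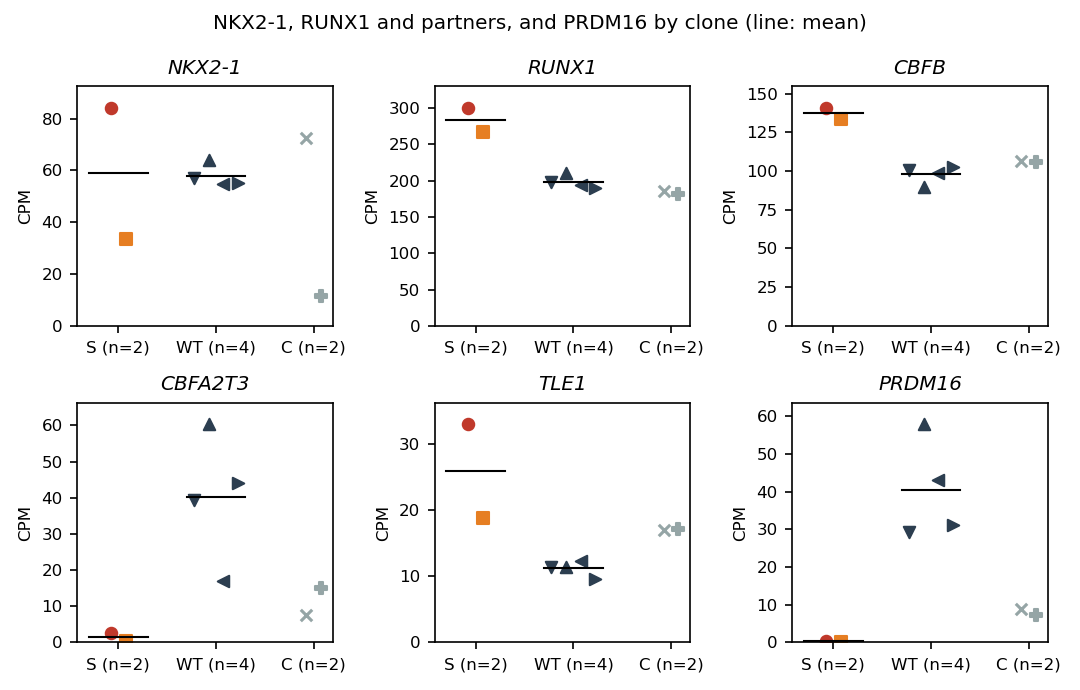
CPM of NKX2-1, RUNX1, CBFB, CBFA2T3, TLE1 and PRDM16 in each clone, by group: S (S04 circle, S36 square), WT (triangles) and C (C12 cross, C15 plus, not in the fit). Lines are means of S and WT. RUNX1, CBFB and TLE1 lie higher, and CBFA2T3 and PRDM16 lower, in both S clones than in all 4 wild-type clones, while the S clones lie on both sides of wild type for NKX2-1.

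The 1091 higher and 1120 lower genes made up 14.5% of those tested. Of these, 561 rose and 468 fell by more than 2-fold, 206 and 135 by more than 4-fold and 63 and 55 by more than 8-fold. In 2206 of the 2211 called genes the S and wild-type clones did not overlap, and this was so in 40.0% of all tested genes. The counts rested on the number of wild-type clones: they were 312 and 372 without WT30, 421 and 480 without WT13, 429 and 503 without WT28, and 502 and 589 without WT10. They were larger with a single S clone, 2225 and 2664 with S04 and 1948 and 2360 with S36. DESeq2 called 1236 higher and 1455 lower (16.6% of its 16169) and limma-voom 1099 and 1112.

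The 12 genes named for the largest rises were protein-coding, averaged at least 1 CPM in S clones and did not overlap wild type. ALB (log2 fold change 4.86) was called but left out by this rule, since S36 was not above the wild-type clones. Of the 12, all but HBEGF were under 1 CPM in every wild-type clone. NNAT, or neuronatin, which is imprinted and encodes a proteolipid of developing neurons, stood at 16.9 and 30.9 CPM against 0.162, 0.212, 0.192 and 0.271 (log2 fold change 6.77, SE 0.34, edgeR adjusted p = 2.70e-04). It lies on chromosome 20 from 37521206 to 37523693, opposite BLCAP. FAM50B, an imprinted retrogene on chromosome 6 from 3849373 to 3851320, stood at 3.89 and 4.76 CPM against 0, 0.0531, 0.0961 and 0.0451, with 126 counts in the S clones and 4 in the wild-type clones (ratio 85.9, exact 95% counting interval 32.7 to 320). Of 21 tested imprinted genes these 2 rose, and GNAS (log2 fold change -0.96) and SNRPN (-0.99) fell, with a median of 0.10. NNAT and FAM50B were also above every wild-type clone in C12 (17.7 and 2.53 CPM) and C15 (12.6 and 1.63).

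SLC16A9, a transporter of the monocarboxylate family, stood at 2.07 and 1.77 CPM against 0.0540, 0, 0.0480 and 0, a ratio of 77.7 with a counting interval of 20.5 to 657. TACC2 encodes a centrosomal protein of the transforming acidic coiled-coil family, and it stood at 0.668 and 4.46 against 0.108, 0.106, 0.0961 and 0. ACVRL1, the receptor ALK1 of the TGF-beta family, stood at 0.972 and 1.61 against 0, 0.106, 0.0961 and 0. The other genes with large rises were HMHB1 (log2 fold change 5.27), SCARA3 (4.86), a scavenger receptor, FTH1 (4.28), the ferritin heavy chain, APOC1 (4.12), an apolipoprotein, TXNDC5 (4.10), an endoplasmic reticulum disulphide isomerase, and PCDHGB2 (3.95), a protocadherin. All were under 10 CPM in both S clones. The size of these rises is loosely known, since the wild-type clones together held 2 to 12 counts of SLC16A9, HMHB1, TACC2, ACVRL1, TXNDC5, PCDHGB2 and APOC1. FTH1 has 25 annotated processed copies. Exons of APOC1, TXNDC5 and PCDHGB2 overlap other genes on the same strand, so these reads are uncertain. TACC2 was not called without S36 (edgeR adjusted p = 0.055), SCARA3 (0.0532) and TXNDC5 (0.0546) were not called without WT30, and APOC1 was not called without S04 (0.102) or WT30.

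HBEGF, a growth factor that activates the EGF receptor, was the abundant gene with the largest rise. It stood at 118 and 491 CPM against 9.02, 11.05, 39.4 and 13.9 (log2 fold change 4.05, SE 0.66, edgeR adjusted p = 0.00826). S36 held more than S04, and both exceeded every wild-type clone, which was a condition for naming HBEGF here. C12 had 170 CPM of HBEGF and C15 8.96, the latter below every wild-type clone. RUVBL1, an ATPase of chromatin remodelling and snoRNP assembly complexes, stood at 450.1 and 637 CPM against 215, 216, 210.1 and 226 (log2 fold change 1.33, SE 0.14). Genes on the other strand overlap its exons, and whether counting used strand is not stated. RPL41, the smallest ribosomal protein, stood at 1257 and 2007 CPM against 739, 659, 587 and 639 (1.31, SE 0.18).

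The largest falls were of genes expressed at low or moderate levels in wild-type clones. PRDM16, a zinc finger factor of stem cells and brown fat that is also a leukaemia oncogene, stood at 0.425 and 0.0768 CPM against 29.4, 57.9, 43.2 and 31.1 (log2 fold change -7.20, SE 0.55, edgeR adjusted p = 8.52e-04). The S clones held 8 PRDM16 counts and the wild-type clones 3222, so the level was 148 times as high in wild type (counting interval 74.9 to 343). PRDM16 spans 3069168 to 3438621 of chromosome 1. It was also below every wild-type clone in C12 (8.99 CPM) and C15 (7.33).

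SIGLEC1, a sialic acid receptor best known from macrophages, had no count in either S clone against 4.05, 4.04, 3.55 and 3.65 CPM in wild-type clones. With 3 counts allowed over both S clones it was at least 37.4-fold lower. MUC3A, a membrane mucin, also had no count in the S clones and stood at 1.998, 1.27, 0.576 and 0.857 CPM in wild-type clones, by the same limit at least 11.3-fold lower. MYH7, a cardiac myosin heavy chain, had 1 count in the S clones and 382 in wild-type clones. SLIT3, an axon guidance ligand, had 2 and 451, RSPH14, a radial spoke protein, 3 and 540, and NPHS1, the slit diaphragm protein nephrin, 1 and 282. Counts of TRIM69, a ubiquitin ligase, were 1 and 185, of ZFHX4, a zinc finger homeobox factor, 2 and 172, and of L3MBTL4, a methyl-lysine reader family member, 4 and 302. The level in wild type was 82.7 times that in S clones for SLIT3 (counting interval 22.8 to 685) and 66.0 times for RSPH14 (22.5 to 321). AKAP12, a scaffold for protein kinase A, stood at 0.486 and 0.230 CPM against 12.8, 13.3, 5.52 and 6.49 (log2 fold change -4.66, SE 0.60). Absence of overlap between the groups was a condition for naming these genes. All 12 genes named for the largest falls, CBFA2T3 included, were called in each fit that left out 1 wild-type clone. RSPH14 shares exon sequence with GNAZ on the other strand, and NPHS1 with KIRREL2 and APLP1.

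**Figure D2:**
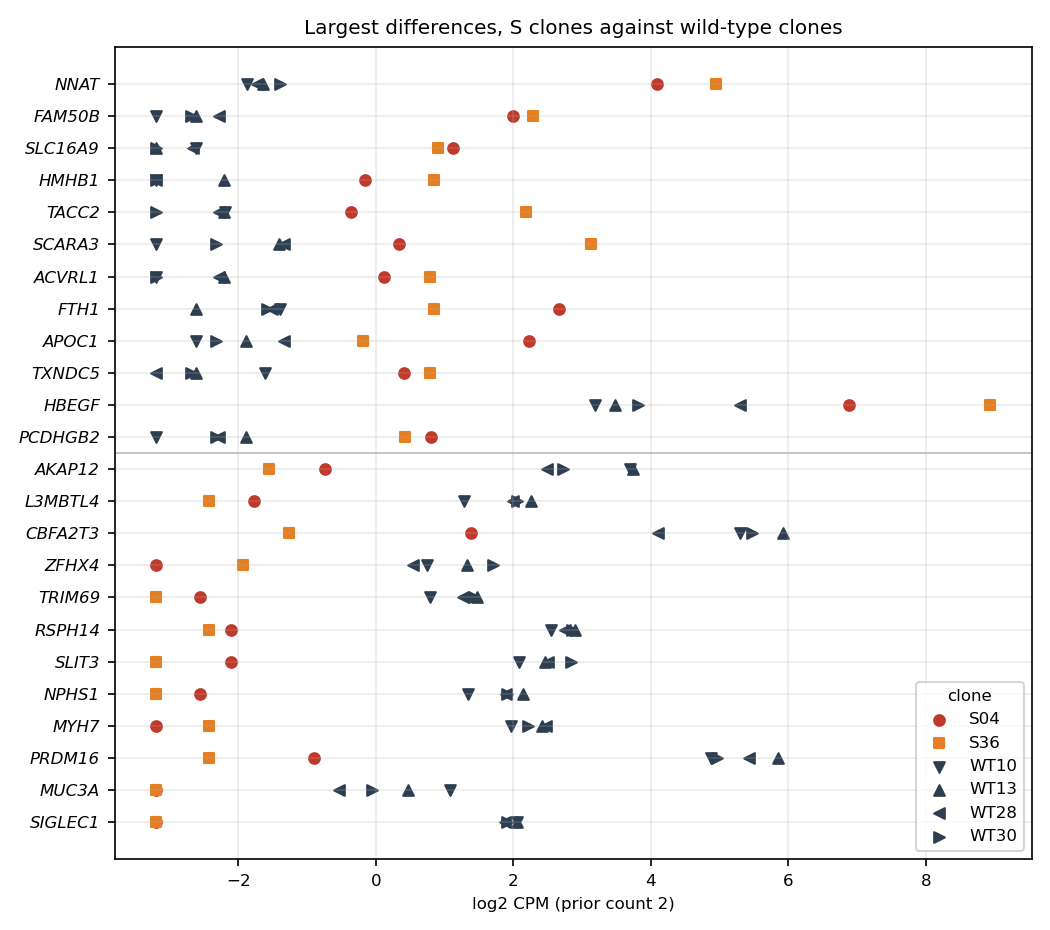
Log2 CPM (prior count 2) in each clone for the 12 genes with the largest rise, above the line, and the 12 with the largest fall, below it. S04 is a circle, S36 a square and the wild-type clones are triangles. For SIGLEC1 and MUC3A the S04 symbol lies under that of S36, both at 0 counts. No S symbol lies within the wild-type range of its gene, which was a condition for naming it.

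Among abundant genes KANK4, ANKRD1, SCN3A, PTMA, HDAC7 and CKAP2L fell most. KANK4, a regulator of actin and adhesion, stood at 11.5 and 5.53 CPM against 83.8, 129, 69.99 and 150.5 (log2 fold change -3.65, SE 0.43, edgeR adjusted p = 0.00310). ANKRD1, a nuclear ankyrin repeat protein induced by YAP, stood at 21.1 and 27.2 against 192, 258, 127 and 94.6 (-2.80, SE 0.41). In C15 ANKRD1 stood at 354 CPM, above every wild-type clone. PTMA, the acidic nuclear protein prothymosin alpha, stood at 1084 and 1334 CPM against 4154, 5785, 4941 and 4757 (-2.02, SE 0.17, edgeR adjusted p = 0.00116). PTMA has 12 annotated processed copies, and it lies on chromosome 2, whose genes lay low as a whole. HDAC7, a histone deacetylase that restrains thymocyte selection genes, stood at 110.0 and 148 CPM against 330.4, 477, 606 and 465 (-1.86, SE 0.25). CKAP2L, a spindle protein also on chromosome 2, stood at 56.9 and 48.6 against 175, 159.9, 189 and 189 (-1.75, SE 0.14). SCN3A, a sodium channel on the same chromosome, stood at 31.8 and 6.99 against 113, 112, 90.5 and 126 (-2.50, SE 0.50), and without WT30 it was not called (edgeR adjusted p = 0.0546).

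Lower calls were concentrated in abundant genes. Among genes with a mean over 100 CPM 20.9% fell and 5.02% rose, the median log2 fold change being -0.17. Of those from 10 to 100 CPM 7.89% fell and 8.65% rose. Under 1 CPM 1.63% fell and 4.55% rose, with a median of 0.18. In wild-type clones the median of the most abundant class differed from the wild-type mean by -0.036 to 0.047, whereas S04 lay at -0.23 and S36 at -0.14. Among protein-coding genes the fifth with the shortest principal transcripts had a median of -0.085 and the longest 0.088.

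**Figure D3:**
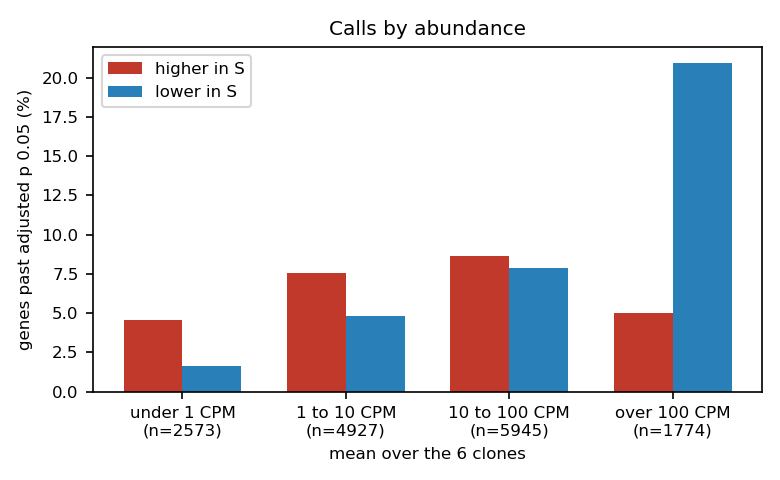
Percentage of tested genes called higher (red) or lower (blue) in the S clones, in 4 classes of mean CPM over the 6 clones. Lower calls reach 20.9% among genes over 100 CPM, against 5.02% higher, and higher calls outnumber lower ones under 10 CPM.

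Replication-dependent histone genes rose together. They supply histones in S phase, and their mRNAs end in a stem-loop in place of a poly(A) tail. Of 63 such genes 45 were tested, 35 rose, 0 fell and 10 did not pass. Both S clones lay above all wild-type clones for 39 of the 45, against 20.1% of all tested genes. The median log2 fold change was 2.19, and 1.97 in S04 and 2.24 in S36 taken alone. The wild-type clones lay between -0.21 and 0.26, each from the mean of the others. Their share of counts was 0.641% and 0.772% against 0.332% to 0.455%, so summed counts rose less than the median gene did. The count of higher genes was 31 with S04 alone, 37 with S36 alone and 25 to 29 without 1 wild-type clone. The median was -0.060 in C12 and 0.66 in C15.

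The linker histones stand among the most abundant genes that rose, and their promoters show the letters by which these genes are known. The 100 bases before the start are given for H1-5, H1-4, H1-3 and H2AC17, the core histone gene with the smallest p, read from RefSeq (GRCh38.p14). Capitals mark CCAAT or its reverse complement ATTGG, the TATA letters TATAAA or TATATAA, which overlap in H1-4 and H1-3, and in H2AC17 the octamer ATTTGCAT.
H1-5, chr6:27867589-27867688, minus strand: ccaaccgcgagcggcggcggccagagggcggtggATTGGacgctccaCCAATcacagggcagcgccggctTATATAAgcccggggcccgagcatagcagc
H1-4, chr6:26156229-26156328, plus strand: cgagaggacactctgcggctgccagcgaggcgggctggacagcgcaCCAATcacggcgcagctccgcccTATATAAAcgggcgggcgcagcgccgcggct
H1-3, chr6:26234988-26235087, minus strand: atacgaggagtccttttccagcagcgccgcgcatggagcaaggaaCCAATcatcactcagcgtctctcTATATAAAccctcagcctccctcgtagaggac
H2AC17, chr6:27893186-27893285, minus strand: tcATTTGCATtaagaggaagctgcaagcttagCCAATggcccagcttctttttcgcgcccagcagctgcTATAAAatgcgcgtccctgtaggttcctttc
Searched on both strands of the 300 bases around the start, CCAAT was in 27 of the 30 higher histone genes with a promoter entry (90%), against 35.7% of all 27305 promoters. TATAAA was in 21 (70%), against 12%, TATATAA in 7 (23.3%), against 2.73%, and ATTTGCAT in 16 (53.3%), against 1.8%. In the 40 tested histone genes with an entry, called or not, the shares were 87.5% for CCAAT, 70% for TATAAA, 25% for TATATAA and 47.5% for ATTTGCAT.

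H1-5 stood at 222 and 196 CPM against 56.5, 47, 32.5 and 40.2 (log2 fold change 2.24, SE 0.20, edgeR adjusted p = 0.00117). H1-4 stood at 192 and 249.9 against 75.1, 67.3, 52.6 and 65.4 (1.76, SE 0.16), and H1-3 at 494 and 447 against 186, 163, 122 and 149 (1.60, SE 0.16). Both S clones exceeded every wild-type clone for all 3 linker histones, which was a condition for naming them. H2AC17 stood at 70.9 and 56.5 CPM against 8.69, 9.13, 6.58 and 8.25 (2.96, SE 0.17, edgeR adjusted p = 5.48e-04). H2AC12 stood at 11.8 and 18.2 against 1.57, 1.22, 1.68 and 1.31 (3.37, SE 0.26), H2BC5 at 52.9 and 47.5 against 12.5, 10.1, 9.08 and 11.5 (2.22, SE 0.16), and H2AC8 at 28.4 and 38.7 against 6.97, 6.69, 6.15 and 7.30 (2.31, SE 0.18). Copies of core histone genes are nearly identical, and H2AC17 overlaps HIST1H3J, so reads may be split between them.

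Other RNAs without poly(A) tails lay higher in the same clones. Of 97 tested small nucleolar RNA (snoRNA) genes, whose products guide the modification of ribosomal RNA, 31 rose and 0 fell, with a median log2 fold change of 1.34. Of 44 small nuclear RNA genes 9 rose and 0 fell (median 0.69). Each was read off the table by its annotated class. These classes, histones and MT-RNR1 moved together, and the part of RNA selection in library making in these results was not tested. The 4 snoRNAs with the smallest p are shown from GENCODE 29 (GRCh38), with capitals on the last CTGA and, in SNORD8, TGATGA, the boxes of the C/D class, and on the ACA near the end of the H/ACA class.
SNORD26, chr11:62855292-62855366, minus strand: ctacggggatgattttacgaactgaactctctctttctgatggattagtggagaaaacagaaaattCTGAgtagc
SNORD8, chr14:21397292-21397401, minus strand: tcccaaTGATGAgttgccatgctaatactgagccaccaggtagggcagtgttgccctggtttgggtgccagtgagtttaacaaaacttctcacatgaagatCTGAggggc
SNORA32, chr11:93730979-93731099, minus strand: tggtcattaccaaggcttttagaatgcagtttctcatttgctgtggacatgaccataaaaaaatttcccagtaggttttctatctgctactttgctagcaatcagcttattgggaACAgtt
SNORA12, chr10:100237156-100237302, minus strand: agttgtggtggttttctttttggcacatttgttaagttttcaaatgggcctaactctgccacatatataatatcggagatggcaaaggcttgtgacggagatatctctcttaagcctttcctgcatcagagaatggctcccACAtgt
SNORD26 stood at 227 and 281 CPM against 28.03, 29.2, 16.96 and 23.9 (log2 fold change 3.37, SE 0.21, edgeR adjusted p = 5.48e-04). SNORD8 stood at 10.9 and 9.45 against 1.03, 0.478, 0.817 and 0.721 (3.73, SE 0.30), SNORA32 at 9.97 and 13.3 against 1.62, 1.22, 1.39 and 1.35 (3.05, SE 0.24), and SNORA12 at 70.9 and 95.9 against 16.4, 22.7, 14.7 and 18.4 (2.21, SE 0.20). Both S clones were well above all wild-type clones in each. Exons of the host transcripts SNHG1, CHD8 and TAF1D overlap the first 3, so some of these reads may belong to the hosts.

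Genes for the ribosome itself moved the other way. Of 77 tested cytosolic ribosomal protein genes 33 fell, 4 rose (RPL41, RPL3, RPS25 and RPS26) and 40 did not pass. Among all tested genes over 100 CPM 20.9% fell and 5.02% rose. The median log2 fold change was -0.50, with S04 at -0.50, S36 at -0.62 and wild-type values from -0.15 to 0.095. Both S clones were below all wild-type clones for 53 of the 77, against 19.9% of all tested genes. The count of lower genes was 14 without WT30, 19 without WT13, 21 without WT28, 25 without WT10, 44 with S04 alone and 51 with S36 alone. In C12 and C15 the median was -0.17 and -0.20.

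Ribosomal protein mRNAs begin with a run of C and T, the terminal oligopyrimidine motif through which mTOR controls their translation. For the 4 genes with the smallest p, 30 bases before and 20 after the RefSeq start (GRCh38.p14) are given, with the run at the start in capitals.
RPS12, chr6:132814539-132814588, plus strand: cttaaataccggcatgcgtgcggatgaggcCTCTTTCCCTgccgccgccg
RPL26, chr17:8383174-8383223, minus strand: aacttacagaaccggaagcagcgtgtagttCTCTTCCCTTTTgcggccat
RPL14, chr3:40457309-40457358, plus strand: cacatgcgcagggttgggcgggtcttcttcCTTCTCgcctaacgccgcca
RPS19, chr19:41860225-41860274, plus strand: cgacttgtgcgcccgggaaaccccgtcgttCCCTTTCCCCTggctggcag
A C at the start followed by at least 4 of C or T was found in 18 of 28 lower ribosomal protein genes with an entry (64.3%), 42 of 62 tested ones (67.7%) and 4.04% of all promoters. Over all genes it was in 79 of 814 lower genes (9.71%), 44 of 761 higher genes (5.78%) and 5.42% of tested genes.

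RPS12 stood at 1854 and 1761 CPM against 4084, 4569, 4554 and 4607 (log2 fold change -1.30, SE 0.12, edgeR adjusted p = 0.00132). RPL26 stood at 1274 and 1594 against 3752, 4140.0, 4660.4 and 4320.4 (-1.56, SE 0.15), RPL14 at 552 and 504 against 1099.5, 1269, 1203 and 1192 (-1.17, SE 0.12), and RPS19 at 1901 and 2319 against 4064, 4741, 4746 and 4536 (-1.10, SE 0.14). For all 4, both S clones lay far below the lowest wild-type clone. Ribosomal protein genes have many processed copies, 19 annotated for RPS12, and reads may be shared with them. Processed pseudogenes as a class had 68 lower and 11 higher of 780 tested, with a median of -0.32.

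Ribosome biogenesis genes also lay lower. Of 47 tested 14 fell, 2 rose (RRP9 and PPAN) and 31 did not pass, with a median of -0.30. Over all tested genes 7.36% fell, and among those over 100 CPM 20.9% fell. NOP58, a core protein of C/D snoRNPs, stood at 97.9 and 106 CPM against 239, 247, 285 and 255 (log2 fold change -1.33, SE 0.13, edgeR adjusted p = 0.00165). DDX18, a nucleolar helicase, stood at 214 and 208 against 425, 443, 461 and 441 (-1.07, SE 0.11), NAT10, an RNA acetyltransferase, at 173 and 181 against 332, 344, 363 and 365 (-0.99, SE 0.11), and TCOF1, the nucleolar factor treacle, at 129 and 126 against 239, 227, 268 and 242 (-0.94, SE 0.12). No S value of these genes reached a wild-type value. NCL and NPM1, abundant nucleolar proteins, fell by 0.95 and 0.93 on the log2 scale. NOP58, DDX18 and NCL lie on chromosome 2. Without genes of the shifted chromosomes 10 fell and 2 rose of 34, and without WT30 6 fell and 0 rose.

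Of 75 tested nuclear genes of oxidative phosphorylation 24 fell, 0 rose and 51 did not pass (median log2 fold change -0.39). Over all tested genes 7.36% fell, and among those over 100 CPM 20.9% fell. ATP5MC3, a subunit of the ATP synthase rotor, stood at 237 and 150.3 CPM against 521, 569, 595 and 565 (-1.54, SE 0.19, edgeR adjusted p = 0.00347). ATP5PO, of the synthase stalk, stood at 182 and 247 against 439, 471, 484 and 505 (-1.14, SE 0.15), ATP5F1D at 33.1 and 38.9 against 63.2, 73.2, 70.5 and 72.5 (-0.96, SE 0.14) and NDUFS8, an iron-sulphur subunit of complex I, at 44.3 and 58.1 against 105, 92.9, 93.2 and 102 (-0.94, SE 0.15). All lay below every wild-type clone in both S clones. Of the 15 mitochondrially encoded genes MT-RNR1 rose (log2 fold change 1.62, SE 0.19, edgeR adjusted p = 0.00310) and 0 fell, with MT-ND1 at -1.01 (edgeR adjusted p = 0.0993) and a median of -0.18. The count of lower nuclear genes was 5 without WT30 and 10 to 14 without 1 of the other wild-type clones.

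**Figure D4:**
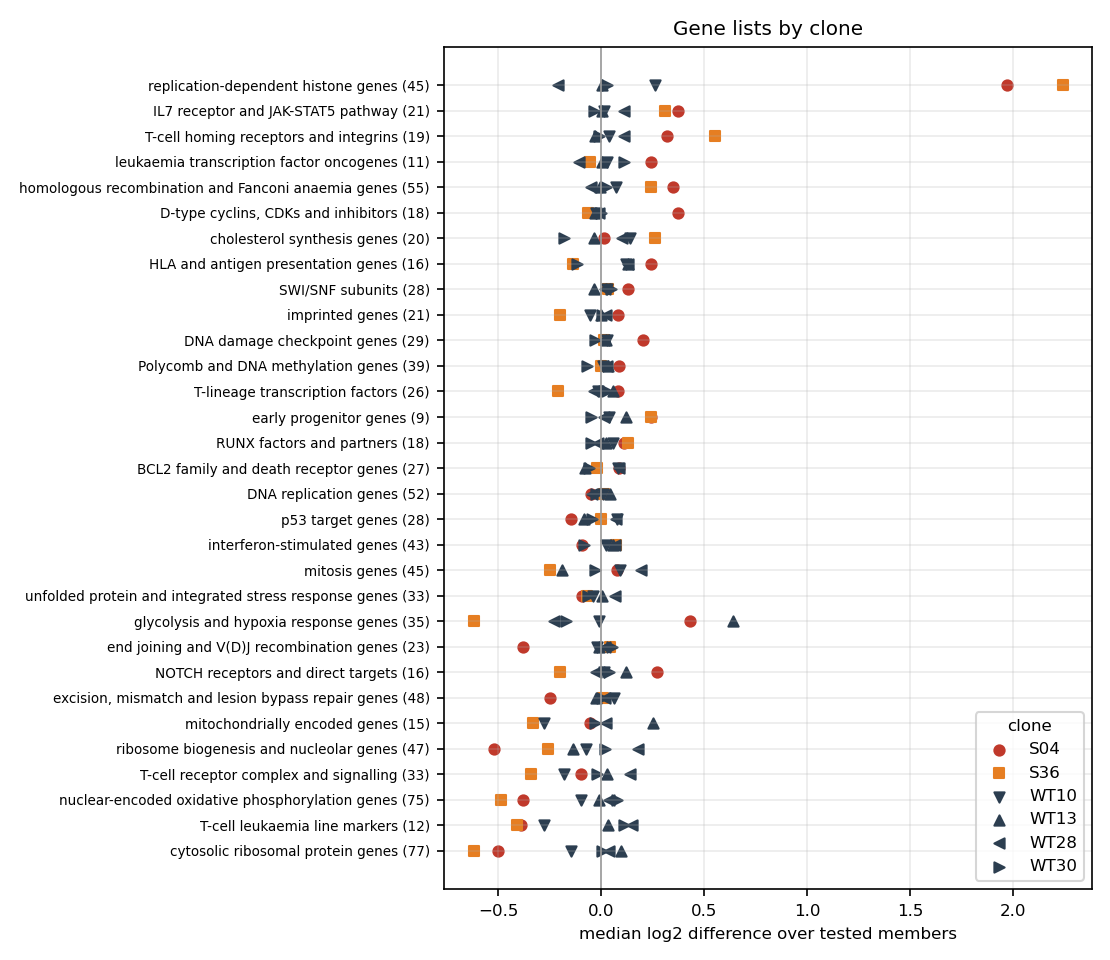
Median log2 difference from the wild-type mean over the tested members of each gene list (number tested in brackets) in S04 (circle), S36 (square) and the wild-type clones (triangles), ordered by median fold change. Histone genes lie at 1.97 and 2.24 in the S clones, and ribosomal protein genes at -0.50 and -0.62, outside the wild-type range of -0.15 to 0.095.

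Genes of homologous recombination and the Fanconi anaemia pathway, which repair double-strand breaks and cross-linked DNA, lay somewhat higher. Of 55 tested 13 rose, 2 fell (RAD51C and RAD51AP1) and 40 did not pass, with a median log2 fold change of 0.28. S04 alone lay at 0.35 and S36 at 0.24, and the wild-type clones lay between -0.052 and 0.070. Over all tested genes 7.17% rose and 7.36% fell.

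MND1, which with PSMC3IP assists strand exchange, stood at 81.8 and 52.7 CPM against 14.3, 9.08, 5.67 and 9.33 (log2 fold change 2.81, SE 0.31, edgeR adjusted p = 0.00271). PSMC3IP also rose (1.39, edgeR adjusted p = 0.0262). BLM, the Bloom syndrome helicase, stood at 74.5 and 71.1 CPM against 44.4, 37.4, 35.4 and 37.9 (0.91, SE 0.13). FANCG, of the Fanconi core complex, stood at 39.3 and 41.02 against 22.03, 20.4, 22.5 and 22.3 (0.88, SE 0.13), and EXO1, an exonuclease of end resection, at 46 and 56.4 against 31.1, 29.5, 29.4 and 26.6 (0.81, SE 0.14). S04 and S36 were above all wild-type clones in each. PALB2 (0.95), DNA2 (0.83), POLQ (0.67), ERCC4 (0.88), MCM9 (0.80), WRN (0.48), RMI1 (0.88) and FANCC (0.73) also rose. FANCG, FANCC, RMI1 and DNA2 lie on chromosomes 9 and 10, and 9 of the 13 lie outside the shifted chromosomes. The count of higher members was 7 without WT10 and 5 without WT13, WT28 or WT30. In C12 and C15 the median was 0.036 and 0.13.

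Other repair genes were called in both directions, as were 7.17% (higher) and 7.36% (lower) of all tested genes. Of 23 tested genes of end joining and V(D)J recombination 2 rose and 3 fell (median -0.071). XRCC6, or Ku70, stood at 219 and 267 CPM against 167, 144, 159.9 and 162 (log2 fold change 0.62, SE 0.13), while its partner XRCC5, or Ku80, stood at 559.5 and 521 against 812, 816, 820.4 and 847 (-0.61, SE 0.11). The Ku genes thus lay on opposite sides of wild type. PRKDC, the DNA-dependent kinase they recruit, rose by 0.40. RIF1, a partner of 53BP1, fell by 0.78 and APLF, a Ku-binding end-joining factor, fell by 1.34. XRCC5, RIF1 and APLF all lie on chromosome 2. XRCC5 was not called without WT30 (edgeR adjusted p = 0.0523), nor XRCC6 without WT13, WT28 or WT30 (up to 0.0632). PRKDC was not called without any 1 of the wild-type clones. Of 48 genes of excision, mismatch and lesion bypass repair 3 rose and 3 fell (median -0.12). TDG, a thymine glycosylase, stood at 38.7 and 37.8 CPM against 88.99, 70.7, 93.9 and 76.02 (log2 fold change -1.11, SE 0.15, edgeR adjusted p = 0.00524).

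Of 29 DNA damage checkpoint genes 5 rose and 1 fell (median log2 fold change 0.079), against 7.17% and 7.36% of all tested genes. ATR rose by 0.57 and RAD17 by 1.08. WEE1, which holds cells before mitosis, stood at 106 and 85.96 CPM against 63.8, 60.8, 56.8 and 56.9 (0.69, SE 0.13, edgeR adjusted p = 0.0126), and PPM1D, the phosphatase that ends the response, at 31.3 and 23.9 against 16.8, 16.2, 14.4 and 12.1 (0.89, SE 0.19, edgeR adjusted p = 0.0205). CLSPN, the adaptor that links ATR to CHK1, stood at 172 and 226 against 317, 319, 346 and 333 (-0.73, SE 0.14, edgeR adjusted p = 0.0137). MDC1 was listed at 2.49 and 1.84 CPM against 0.432, 0.478, 0.144 and 0.271 (2.71), a rise that rests on few reads. Without WT30, WEE1 (edgeR adjusted p = 0.0547), CLSPN (0.0554) and PPM1D (0.0668) were not called, and PPM1D was not called without WT13 or WT28 either. ATR and RAD17 were not called without WT13, WT28 or WT30.

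Of 28 tested p53 targets 4 rose and 3 fell (median 0.0085), against 7.17% and 7.36% of all tested genes. The kinase PLK2 stood at 15.3 and 5.84 CPM against 3.51, 3.35, 3.17 and 2.71 (log2 fold change 1.74, SE 0.35), whereas GADD45A, a stress sensor, stood at 18.7 and 21.7 against 39.4, 45.9, 30.8 and 36.5 (-0.92, SE 0.19), and TRIAP1, an apoptosis inhibitor, at 85.3 and 117 against 142, 158, 182 and 180.3 (-0.71, SE 0.17). The death receptor FAS rose by 2.62. Among 27 genes of the BCL2 family and death receptor pathway 5 rose and 3 fell (median 0.034). BCL2L1, which encodes the survival protein BCL-XL, stood at 23.03 and 29.4 CPM against 57.02, 48.1, 55.6 and 54.1 (-1.04, SE 0.16, edgeR adjusted p = 0.00635). FAS, BAD (0.58) and FADD (1.68) were among those that rose, and HRK (-2.33) and CASP10 (-0.53) fell. PLK2 and TRIAP1 were not called without WT13, WT28 or WT30, nor GADD45A without WT10, WT13 or WT30. FAS, HRK, CASP10, BAD and FADD were not called without any 1 of the wild-type clones, and FADD also not without S36.

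Proliferation genes showed no common direction. Of 52 DNA replication genes 7 rose and 5 fell (median log2 fold change 0.016), against 7.17% and 7.36% of all tested genes. POLE, the leading-strand polymerase, stood at 186 and 144 CPM against 109, 104, 104 and 111 (0.63, SE 0.13), and RFC1, of the clamp loader, at 358 and 354 against 550.2, 561, 543 and 544 (-0.63, SE 0.10). MCM2, listed under 1 CPM in wild-type clones, stood at 2.55 and 4.07. Of 45 mitosis genes 2 rose and 4 fell (median -0.0097). AURKA, a spindle kinase on chromosome 20, stood at 117 and 109 CPM against 268, 205, 301 and 259 (-1.20, SE 0.17, edgeR adjusted p = 0.00515). TOP2A stood at 2937 and 3068 against 4732, 4370.5, 4044 and 5102 (-0.60, SE 0.13) and KIF11, a spindle motor, at 145 and 204 against 109, 96.9, 94.9 and 94.9 (0.82, SE 0.15). E2F7 and E2F8, atypical repressors of E2F targets, rose by 1.00 and 0.82, and CDKN2C, a CDK4 and CDK6 inhibitor, rose by 0.52, the 3 calls among 18 cell cycle regulators. POLE lost its call without any 1 of the wild-type clones, TOP2A without WT10, WT13 or WT30, and KIF11 without WT30 (edgeR adjusted p = 0.0542). E2F8 was not called without WT30 (0.0585), nor CDKN2C without S04 or any 1 of the wild-type clones (up to 0.103).

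Most genes of the T-cell receptor list did not pass. Of 33 tested genes of the T-cell receptor complex and its signalling 5 fell (CD28, CD27, CD6, CD5 and GRAP2), 1 rose (BCL10) and 27 did not pass, with a median log2 fold change of -0.32, while 7.36% of all tested genes fell. CD28, the costimulatory receptor, stood at 8.87 and 4.76 CPM against 23.4, 24, 20.3 and 27.4 (-1.79, SE 0.27, edgeR adjusted p = 0.00635). CD6 stood at 21.9 and 18.9 against 38.1, 42.6, 47.8 and 42.1 (-1.06, SE 0.16), CD5, a brake on receptor signalling, at 56.5 and 71.6 against 86.02, 118, 102 and 102 (-0.67, SE 0.16), and CD27 at 0.122 and 0.230 against 1.03, 2.28, 1.35 and 1.17 (-3.04, SE 0.63). In each, both S clones were below all wild-type clones. CD5 was not called without WT13, WT28 or WT30 (edgeR adjusted p up to 0.0895), CD27 was not called without WT30 (0.0503), nor BCL10 without WT13, WT28 or WT30. GRAP2 was not called without any 1 of the wild-type clones. For the list as a whole the S04 median of -0.10 lay within the wild-type range of -0.18 to 0.14, and that of S36, -0.34, lay below it.

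Of 26 T-lineage transcription factors 2 rose and 3 fell (median 0.058), against 7.17% and 7.36% of all tested genes. SOX4 stood at 2370.0 and 2244 CPM against 3183, 3254, 3213 and 3347 (log2 fold change -0.49, SE 0.11), IKZF1, or Ikaros, at 121 and 147 against 201, 185, 189 and 204 (-0.54, SE 0.13), and GFI1 at 45.8 and 36.2 against 59.2, 65.5, 62.2 and 57.1 (-0.57, SE 0.14). ETS1 stood at 263 and 226 against 189.9, 179.8, 152 and 143 (0.56, SE 0.15), and PRDM1 rose by 2.93. SOX4, IKZF1, GFI1 and ETS1 lost their calls without any 1 of the wild-type clones (edgeR adjusted p up to 0.113), and ETS1 also without S04. PRDM1 was not called without any 1 of the wild-type clones either, since 0 list members then rose and 0 fell. Of 11 tested leukaemia oncogenes MYCN alone passed, at 79.8 and 79.5 CPM against 40.2, 56.2, 34.5 and 36.2 (0.93, SE 0.20, edgeR adjusted p = 0.0191), but not without WT10, WT28 or WT30. LMO1 stood at 67.99 and 111 against 127, 156, 133 and 154 (-0.67, edgeR adjusted p = 0.0574) and TAL1 at 51.9 and 37.6 against 57.9, 61.9, 58.7 and 69.3 (-0.47, edgeR adjusted p = 0.0908). Both S clones lay below every wild-type clone for LMO1 and TAL1, although neither gene passed.

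Of 16 NOTCH receptors, regulators and targets 3 rose and 2 fell (median -0.091), against 7.17% and 7.36% of all tested genes. HES4, a NOTCH target, stood at 174 and 139 CPM against 71.6, 86.5, 85.7 and 82.6 (log2 fold change 0.94, SE 0.14, edgeR adjusted p = 0.00559), and IGF1R at 48.4 and 46.8 against 31.3, 29.6, 26.2 and 27.01 (0.74, SE 0.13). FBXW7, which degrades NOTCH1 and MYC, stood at 87.98 and 130.0 against 169.6, 161, 182 and 179.8 (-0.67, SE 0.17), and NOTCH3 fell by 2.32. MAML1, the NOTCH coactivator, was listed at 1.22 and 0.768 CPM against 0.270, 0.159, 0.144 and 0.0451 (2.67). IGF1R was not called without WT30 (edgeR adjusted p = 0.053). FBXW7 and NOTCH3 were not called without any 1 of the wild-type clones, nor MAML1 without S04, WT13, WT28 or WT30. Of 21 genes of the IL7 receptor and JAK-STAT5 pathway 4 rose and 0 fell (median 0.35). They were SOCS2 (43.9 and 32.3 CPM against 21.7, 21.3, 14.6 and 22.8), JAK1 (151 and 131 against 109, 108, 103 and 96.8), STAT5A (382 and 638 against 309, 360.0, 241 and 285) and IL6ST. None of the 4 passed without any 1 of the wild-type clones, while the median then stayed at 0.29 to 0.36.

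Homing receptors and integrins split. CXCR4, which holds T-ALL cells in marrow, stood at 255 and 184 CPM against 386, 443, 366 and 413 (log2 fold change -0.87, SE 0.16, edgeR adjusted p = 0.0119), and ITGB2 at 165 and 140.3 against 239, 266, 315 and 230.0 (-0.78, SE 0.16). ITGB1 stood at 68.9 and 65.8 against 40.7, 44.9, 46.2 and 43.4 (0.62, SE 0.12) and ITGA6, a laminin receptor subunit, at 140.4 and 242 against 111, 113, 108 and 81.97 (0.88, SE 0.22). With ITGA5, 3 of 19 tested members rose and 2 fell (median 0.30), against 7.17% and 7.36% of all tested genes. ITGA5 was not called without any 1 of the wild-type clones. With 1 clone left out ITGA6 passed only in the fit without S04, and ITGB1 lost its call without WT30 (edgeR adjusted p = 0.0585) and ITGB2 without WT13 (0.0552).

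Classical lung and thyroid genes of NKX2-1 were barely detected. Of 20, 8 (the surfactant genes SFTPA1, SFTPA2, SFTPC and SFTPD among them) had no count in the 6 clones, and 6 were tested, with a median of -0.38. TSHR had 1 count in the S clones and 86 in wild-type clones (edgeR adjusted p = 0.0786). SFTA3, which neighbours NKX2-1, stood at 0.790 and 0.768 CPM against 1.19, 1.06, 1.49 and 1.26 (edgeR adjusted p = 0.270). Of the 9 tested early progenitor genes 0 passed. CD34 stood at 578 and 917 CPM against 472, 466, 535 and 485 (0.61, edgeR adjusted p = 0.0508).

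Core letters of RUNX and NKX2-1 motifs were counted in the promoters of called genes, with no test. TGTGGT, the RUNX core, was on either strand of the 300 bases in 83 of 761 higher genes (10.9%), 79 of 814 lower genes (9.71%), 937 of 9972 tested genes (9.4%) and 13.1% of all promoters. CACTTGA, a core of NKX2-1 sites, was in 14 higher genes (1.84%), 13 lower genes (1.6%), 1.63% of tested genes and 2.56% of all promoters. These motifs do not overlap each other, and a match is a description of the letters and not a bound site.

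Chromatin genes were called in both directions, as were 7.17% (higher) and 7.36% (lower) of all tested genes. Of 28 SWI/SNF remodeller subunits 5 rose and 3 fell (median 0.11). ACTL6A stood at 73.1 and 89.7 CPM against 37.96, 36.2, 37.4 and 34.7 (log2 fold change 1.15, SE 0.13, edgeR adjusted p = 0.00270) and SMARCA2, the BRM ATPase on chromosome 9, at 71.4 and 58.5 against 32.3, 31.6, 31.3 and 28.9 (1.07, SE 0.13). ARID1B, the alternative BAF targeting subunit, stood at 73.4 and 71.98 against 153, 184, 150.3 and 147 (-1.13, SE 0.14), and BCL7A at 134 and 202 against 311, 311, 349 and 347 (-0.97, SE 0.17). Of 39 Polycomb and DNA methylation genes 4 rose and 1 fell (median 0.070). CBX7, which reads the Polycomb mark, stood at 1.34 and 1.46 against 4.86, 6.74, 5.62 and 5.32 (-2.01, SE 0.28, edgeR adjusted p = 0.00515), while TET3 (0.92), BCOR (0.77), AEBP2 (0.53) and RNF2 (0.52) rose. AEBP2 and RNF2 were not called without any 1 of the wild-type clones, nor BCOR without WT28 or WT30 (edgeR adjusted p up to 0.0638).

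Whole chromosomes were displaced in the S clones. The median log2 difference from the wild-type mean over 1009 tested genes of chromosome 2 was -0.36 in S04 and -0.25 in S36, and over 543 genes of chromosome 9 it was 0.40 and 0.35. Set against the mean of the others, no wild-type clone departed from 0 by more than 0.040 on chromosome 2 or 0.027 on chromosome 9. Chromosome 20 lay at -0.45 in S04 and -0.14 in S36, and chromosome 10 at 0.045 and 0.28. In S36 the first 20 Mb of chromosome 20 had a median of 0.37 and the rest -0.19 to -0.50, while in S04 all 4 stretches lay between -0.27 and -0.60. On chromosome 2, S36 lay between -0.13 and 0.059 in the stretches up to 80 Mb and between -0.21 and -0.50 beyond, whereas S04 was low throughout. C12 and C15 had medians of -0.35 and -0.44 on chromosome 2 and 0.20 and 0.35 on chromosome 9. On chromosome 20 C12 lay at -0.36, with all 4 stretches between -0.26 and -0.53, and C15 lay at 0.019. On chromosome 10 they lay at 0.015 and -0.14.

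These 4 chromosomes, with a median beyond 0.25 in an S clone, held 16.5% of tested genes, 19.9% of higher genes and 23.9% of lower genes. On chromosome 2 16.9% of genes fell and 1.98% rose, and on chromosome 9 22.7% rose and 2.76% fell. Without them 807 higher and 839 lower genes were called among 12702. DNA copy number was not measured, and its part in these calls was not tested.

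**Figure D5:**
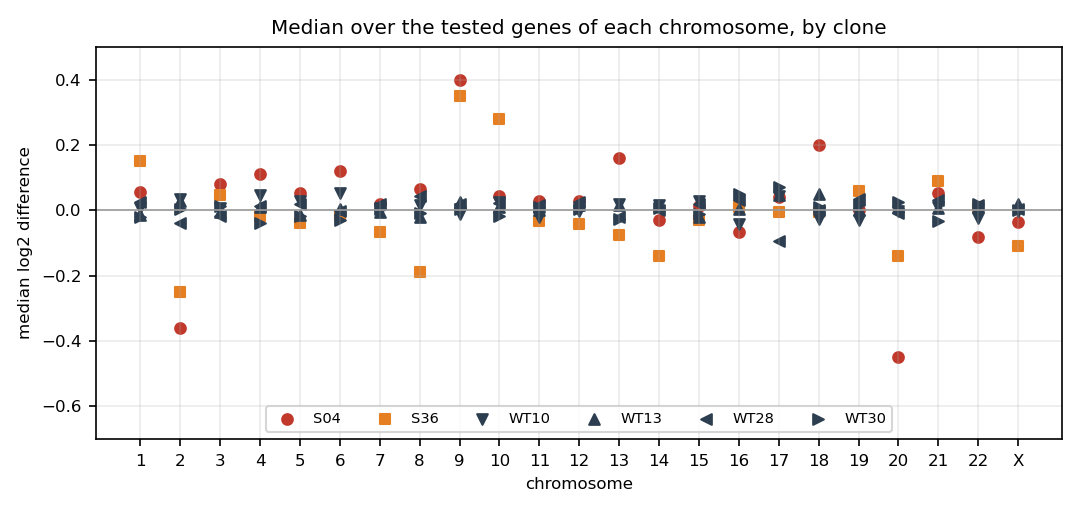
Median log2 difference from the wild-type mean over the tested genes of each chromosome in S04 (circle), S36 (square) and the wild-type clones (triangles). Both S clones lie low on chromosome 2 and high on chromosome 9, S04 lies lowest on chromosome 20 (-0.45), and all wild-type values are within 0.093 of 0.

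The C-named clones, which share the wild-type controls, gave a check of direction alone. Of the 1091 higher genes 837 (76.7%) were above the wild-type mean in C12, 698 (64.0%) in C15 and 530 (48.6%) in both. Of the 1120 lower genes 894 (79.8%) were below it in C12, 745 (66.5%) in C15 and 619 (55.3%) in both. Over all genes with an S fold change above 0 the shares were 64.2% in C12, 50.8% in C15 and 32.3% in both, and below 0 they were 64.2%, 59.4% and 38.9%. The median difference of the higher genes was 0.98 in S04 and 1.04 in S36, against 0.19 in C12 and 0.25 in C15, and of the lower genes -0.94 and -0.87, against -0.21 and -0.25. C15 had 2730285 counts, so that its values for low genes rest on few reads.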

How the data were processed

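RNA-seq counts per gene, deposited by the authors as raw counts for 8 clones, were used without their normalization. Per the submitters' processing notes the tools were FastQC, TopHat2, SAMtools and Subread on hg38. For their versions, roles, annotation and use of strand, the sources used here give nothing. Total RNA was extracted with an RNeasy kit, per the labels' protocols, and RNA selection is not given. The table held 61228 symbols, of which 56967 matched GENCODE 29.

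S04 and S36 were fitted against the 4 wild-type clones with edgeR 4.0.16 in R 4.3.3 (filterByExpr, TMM, quasi-likelihood test, Benjamini-Hochberg adjustment over 15219 genes, threshold 0.05). Log2 fold changes are S minus wild type. With 2 against 4 clones there are 4 residual degrees of freedom, and an exact permutation test over 15 assignments is two-sided and cannot go below 0.0667. Depth per sample and the limit for a count of 0 (3 counts) are given with the results, and counting intervals cover counting error only. DESeq2 1.42.0, limma-voom (limma 3.58.1), RLE factors, other filters, thinned libraries, all 8 clones and leaving out each clone were alternatives, and the fits without shifted chromosomes and without mitochondrial, histone and small RNA genes were chosen after seeing the data, as were the promoter motifs.

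On simulated data with 200 changed genes among 15219, edgeR recovered 29% of 2-fold and 76% of 4-fold changes, and 7.89% of its calls were false. The simulation gave both groups the same spread and shifted no chromosome. In the data 22.1% of genes were over 2-fold apart between S04 and S36, against 5.91% to 7.83% between wild-type clones. The simulated shares therefore do not give the false share of the calls reported here. Named genes were the 12 largest called changes in each direction and the 6 largest among abundant genes. Both sets took only protein-coding genes without overlap between S and wild-type clones. The higher group had a mean of at least 1 CPM, or 100 CPM for abundant genes. Also named were up to 4 members of each list with the smallest p, besides NKX2-1, RUNX1 and genes far apart between S04 and S36. Other list members named were chosen after their values were seen. Members and lists were chosen with earlier results of these data known. Results for a few genes are not reported here.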

Additional observations from a re-analysis of the deposited data

Results flagged for a closer look

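In 13 of 215 sets of wild-type values, 1 wild-type clone lay far from the other 3 by Dixon's criterion, against about 11 that chance gives, and the values are log2 CPM with no explanation. WT10 lay apart for KIF11 (6.77), RPS12 (12), IL6ST (-0.12) and THY1 (3.47). WT13 lay apart for HMHB1 (-2.21) and FTH1 (-2.62). WT28 lay apart for LPCAT1 (-1.52), SOCS2 (3.88) and NKG7 (3.63), and WT30 for TACC2 (-3.19), ITGA6 (6.36) and AEBP2 (5.28). The HLA and antigen presentation list had a median log2 difference from the wild-type mean of -0.12 in WT30.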

How the results depend on the processing

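No paired analysis was possible because the S and wild-type clones share no replicate number. Counts of called genes stayed within 1.5 times the reported ones with DESeq2, limma-voom, RLE factors, a 1 CPM filter and thinned libraries. All 8 clones in the fit gave 668 higher and 733 lower genes, and no low-count filter gave 1817 lower. Leaving out 1 clone gave 312 to 2225 higher and 372 to 2664 lower genes. NKX2-1 had a log2 fold change of -0.089 with limma-voom, -0.022 with no filter and -0.80 to 0.52 with 1 clone left out (0.52 without S36, -0.80 without S04). RUNX1 kept 0.41 to 0.57 with 1 clone left out, and was 0.51, 0.54, 0.50 and 0.50 without WT10, WT13, WT28 and WT30, where it was not called. With 1 S clone left out, the other is assumed to vary like the wild-type clones.

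Some named genes changed sign. Leaving out each clone in turn moved the log2 fold change over -0.082 to 0.71 for MEIS1, -0.22 to 1.20 for S100A9, -0.32 to 0.34 for NFE2, -0.32 to 1.59 for GNLY, -0.12 to 0.95 for NKG7, -3.27 to 2.62 for CABLES1, -3.53 to 1.51 for AIF1L, -0.17 to 4.04 for NCR3LG1, -2.12 to 5.82 for ALB, -5.73 to 1.32 for ARPP21, -5.51 to 1.34 for AK4 and -4.99 to 1.11 for BNIP3, the lowest values being without S36 for MEIS1, NFE2, GNLY, NKG7, CABLES1, AIF1L and NCR3LG1 and without S04 for the others. With limma-voom the values were -0.15 for CABLES1, -1.06 for AIF1L, -0.46 for ARPP21, -1.30 for AK4 and -1.51 for BNIP3. ARPP21 was -0.21 without WT13 and -0.15 without WT30, and BNIP3 -0.051 without WT28. The cause was not tested. Of 141 named genes past the threshold, 81 were called in every fit with 1 clone left out, and so were 91 of the 253 list members past it. S36, with the fewest counts of the 6, limits low genes most.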

Other observations

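S04 and S36 differed from each other more than wild-type clones did. Of tested genes 3364 (22.1%) were over 2-fold apart between S04 and S36, against 900 to 1191 genes (5.91% to 7.83%) for pairs of wild-type clones. These are values of 1 clone each, with no test. CABLES1, a cyclin-dependent kinase adaptor, stood at 0.729 and 43.2 CPM in S04 and S36, AIF1L at 0.668 and 22.05, SYNGR1, a synaptic vesicle protein, at 0.608 and 18.9, and NCR3LG1, the NKp30 ligand B7-H6, at 0.790 and 14.6. The other way, ALB stood at 20.5 and 0.0768 CPM, ARPP21 at 28.01 and 0.230, AK4 at 18.7 and 0.154 and BNIP3 at 85.2 and 1.23. AK4 and BNIP3 are known targets of the hypoxia response. The 35 tested glycolysis and hypoxia genes had a median log2 difference from the wild-type mean of 0.43 in S04 and -0.62 in S36, while WT13 lay at 0.64 and the other wild-type clones between -0.23 and -0.014. HIF1A stood at 58.6 and 57.7 CPM in S04 and S36 against 32.02, 33.03, 31.1 and 28.5 (log2 fold change 0.90, SE 0.12, edgeR adjusted p = 0.00512), so S04 and S36 were alike in HIF1A and far apart in these targets.

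Interferon-stimulated genes were also divided. Of 43 tested 8 rose and 2 fell (median -0.0015), against 7.17% and 7.36% of all tested genes. TRIM22 stood at 8.63 and 7.45 CPM against 2.59, 3.88, 3.07 and 2.66 (log2 fold change 1.40, SE 0.25) and HERC5 at 157 and 155 against 107, 106, 106 and 104 (0.56, SE 0.10), the latter not called without WT30 (edgeR adjusted p = 0.0554). The nuclear body genes SP110 (-1.04) and SP100 (-0.82), which are neighbours on chromosome 2, fell. Among 33 stress response genes ATF6 rose (1.01, edgeR adjusted p = 0.00380), and ATF4 (-0.93, edgeR adjusted p = 0.0199) and PHGDH (-0.77, edgeR adjusted p = 0.00608) fell. ATF4 was not called without WT28 or WT30 (edgeR adjusted p up to 0.0676). Of 20 cholesterol synthesis genes 1 rose (ACAT2, 1.34) and 1 fell (TM7SF2, -1.15), and of 16 antigen presentation genes 1 rose (ERAP1, 0.96) and 1 fell (PSMB9, -0.81). With 1 clone left out ACAT2 passed only without S04, PSMB9 was not called without WT13, WT28 or WT30, and TM7SF2 was not called without WT13 (edgeR adjusted p = 0.0511). Among markers of other cell types BLK (2.02) rose, and CR2 (-0.84), IGLL1 (-0.85) and THY1 (-1.51) fell. CR2 was not called without any 1 of the wild-type clones, BLK and IGLL1 passed in 1 of the 6 fits that left out 1 clone, and THY1 was not called without WT30 (edgeR adjusted p = 0.0546).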
